A study of Homo sapiens with 16 samples.

Results

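CC chemokines are small secreted proteins that attract leukocytes, and their transcripts were followed here in 4 human immune cancer lines, with and without stimulation. The 8 genes CCL1, CCL2, CCL3, CCL4, CCL5, CCL20, CCL22 and CCL23 were taken by symbol from the 27311 genes in the files, and all 8 were found. THP-1, a monocytic line that carries dCas9-KRAB in both of its groups, received LPS from E. coli K12 at 1 µg/ml or was left untreated. dCas9-KRAB is a Cas9 protein without cutting activity that is fused to a repressor domain. U937, a monocytic line of wild-type genotype, received LPS at 200 ng/ml or was left untreated. Jurkat, a wild-type T cell line, received PMA, a phorbol ester, at 100 ng/ml and anti-CD3 at 5 µg/ml, or was left untreated. BJAB, a wild-type B cell line, received anti-IgM at 10 µg/ml with anti-CD40 at 4 µg/ml or was left untreated. Every stimulation lasted 4 hours, and each of the 8 groups held 2 SmartSeq2 libraries. Nothing in the labels says that the libraries of a group came from separate cultures, so p-values measure only the spread between these libraries, which may be technical.

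The chemokines of this class carry adjacent cysteines near the amino terminus and signal through G protein-coupled receptors named CCR. Many of their genes are nearly silent in resting cells and are switched on by NF-kB after a signal from a Toll-like receptor (LPS acts through TLR4), an antigen receptor or CD40. CCL3 and CCL4, the macrophage inflammatory proteins 1-alpha and 1-beta, draw monocytes and T cells, and CCL3 binds CCR1. CCL2 attracts monocytes through CCR2, CCL5 binds CCR1 and CCR3, and CCL23 binds CCR1. CCL20 is the ligand of CCR6, CCL22 that of CCR4 and CCL1 that of CCR8.

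The values are TPM (transcripts per 1000000), which are scaled for transcript length so that levels of different genes can be compared roughly. A shift with length in the first LPS library of U937 and reads lost to near copies, both given below, limit this. Depth, recovered from the step that 1 read makes in the TPM values, was 3317689 reads in the second LPS library of THP-1 and 4125240 to 8432224 in the other libraries. The labelled lineages were checked against marker genes. A list of 12 monocytic markers summed to 5580 to 5968 TPM in LPS-treated and 5676 to 5927 TPM in untreated THP-1, and to 4255 to 4314 TPM in LPS-treated and 3738 to 4069 TPM in untreated U937. CD14, a monocyte marker, was listed at 0 in all 4 U937 libraries. The monocytic markers summed to at most 135 TPM in BJAB and 5.11 TPM in Jurkat. In Jurkat 10 T cell markers summed to at least 5215 TPM. These summed to 87.45 to 103.1 TPM in stimulated and 92.31 to 94.75 TPM in untreated BJAB, and to at most 1.845 TPM in the monocytic lines. A list of 10 B cell markers summed to at most 186 TPM outside BJAB. In BJAB the B cell markers summed to 1396 to 3683 TPM after stimulation and 5324 to 5642 TPM without it, and the part of this in the BJAB results was not tested. The first stimulated libraries of U937 and of BJAB stood apart from their partners, with a Pearson r of log2(TPM + 1) of 0.943 and 0.939 within those pairs against 0.984 to 0.991 in the other 6 groups. With genes put into 5 classes of equal size by transcript length, the first of the U937 libraries with LPS had a median log2 difference from untreated cells of 0.11 in the shortest class and -0.76 in the longest. Among the chemokine genes, 7 of the 8 are in the shortest class. The tests of stimulation in both lines are therefore also given without these 2 libraries. In all tests the spread of a gene was pooled over the 8 groups. These 2 libraries thus also enter the p-values of THP-1, of Jurkat and of the comparisons of untreated lines.

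RefSeq promoter sequences (build GRCh38.p14) were matched for 5 of the 8 genes, CCL1, CCL3, CCL20, CCL22 and CCL23, and 3 are shown because the genes they precede were highest in different cells. CCL3 was highest in stimulated BJAB, CCL1 in stimulated Jurkat and CCL20 in LPS-treated U937. The bases run 5′ to 3′ on the gene's strand up to the base before the start for CCL3 (chr17:36090144-36090393, minus strand) and CCL1 (chr17:34363234-34363483, minus strand), and up to 21 bases before it for CCL20 (chr2:227813592-227813821, plus strand). Capitals mark the TATAAA box 29 to 24 bases before the start in CCL3 and CCL20, and a match to the 10-base kappa B consensus, the sequence that NF-kB proteins bind, 79 to 70 bases before the start of CCL20. No capitals appear in CCL1 because none of the searched motifs was found there.
CCL3: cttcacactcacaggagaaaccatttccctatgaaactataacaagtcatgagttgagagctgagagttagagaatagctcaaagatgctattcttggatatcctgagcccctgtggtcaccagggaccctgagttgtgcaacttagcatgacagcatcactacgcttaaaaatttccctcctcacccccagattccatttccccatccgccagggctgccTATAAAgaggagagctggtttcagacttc
CCL1: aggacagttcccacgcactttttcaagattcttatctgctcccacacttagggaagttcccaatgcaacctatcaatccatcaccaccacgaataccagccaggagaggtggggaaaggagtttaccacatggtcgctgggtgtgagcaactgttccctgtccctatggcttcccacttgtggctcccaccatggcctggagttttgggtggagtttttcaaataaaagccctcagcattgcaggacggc
CCL20: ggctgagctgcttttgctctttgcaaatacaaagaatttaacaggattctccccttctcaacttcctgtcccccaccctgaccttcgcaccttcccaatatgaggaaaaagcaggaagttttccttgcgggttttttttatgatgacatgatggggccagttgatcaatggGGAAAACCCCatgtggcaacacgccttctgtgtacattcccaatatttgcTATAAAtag

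Over the 250 bases before the start, on both strands, the kappa B consensus was found in 5.21% of 35116 promoter windows, TATAAA in 10.7% and the AP-1 motif TGANTCA in 6.57%. Among the chemokines, CCL20 and CCL22 each held 1 kappa B match, the one of CCL22 lying 185 to 176 bases before the start. TATAAA was found in CCL3, CCL20 and CCL23, in CCL3 in 1 of 3 annotated start windows, and TGANTCA in none of the 5 genes. The kappa B and TATAAA matches in CCL20 do not overlap. These matches describe the letters in the window and not binding.

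CCL4 was the one chemokine whose rise passed the test given below in all 4 lines. In each line CCL3 also lay higher in both stimulated libraries than in both untreated ones. CCL4 was listed at 0 in every untreated library. Its level was 16.1 and 17.2 TPM in LPS-treated THP-1, 53.2 and 25.3 TPM in LPS-treated U937, 17.5 and 8.08 TPM in stimulated Jurkat and 83.0 and 68.3 TPM in stimulated BJAB, against 0 TPM in the untreated libraries of each line. All 8 stimulated libraries thus lay above all 8 untreated ones. In such bulk libraries, more cells with the transcript and more transcript per cell cannot be told apart. Behind these levels stood 60 reads in THP-1, 191 in U937, 57 in Jurkat and 385 in BJAB, against 0 reads in each untreated pair. For ratios, a floor of 3 reads over the untreated pair was used. Mean CCL4 TPM with stimulation was 26.7 times this floor in THP-1, 45.4 times in U937, 18.4 times in Jurkat and 103 times in BJAB. Counting error of the stimulated reads is not in these ratios.

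The limma test on log2(TPM + 1), with Benjamini-Hochberg adjustment over 14398 genes, called CCL4 in each line, with adjusted p of 0.000576 in THP-1, 6.43e-05 in U937, 7.09e-05 in Jurkat and 2.41e-06 in BJAB. With stimulated library 1 of U937 and of BJAB left out, the adjusted p was 0.000749 in U937 and 1.31e-05 in BJAB. The spread of a gene was pooled over the 8 groups, and 4 groups in which CCL4 was at 0 in both libraries added no spread to it. Fitted on the libraries of each line alone, the adjusted p was 0.202 in THP-1, 0.568 in U937, 0.0728 in Jurkat and 0.0673 in BJAB. Of all tested genes, those fits called 0 in THP-1, 0 in U937, 368 in Jurkat and 12 in BJAB.

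CCL3, the close relative of CCL4, reached its highest level in BJAB, at 615 and 350 TPM after anti-IgM and anti-CD40, against 0 and 0.395 TPM in untreated BJAB. The stimulated libraries held 2944 reads and the untreated ones 1 read, a ratio of 2360 per unit of depth with an exact 95% counting interval of 424 to 93300. The log2 difference was 8.62 ± 0.52 (SE, 2 libraries per group) with an adjusted p of 3.01e-06 in limma, and 8.22 with an adjusted p of 2.09e-05 without the library that stood apart. On the BJAB libraries alone its adjusted p was 0.0736.

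In Jurkat, CCL3 was at 4.89 and 6.02 TPM after anti-CD3 and PMA, against 0 TPM in both untreated libraries. That is 29 reads against 0, with a mean TPM 9.37 times the same floor. The limma adjusted p was 0.0106, and it lay between 0.0673 and 0.107 when any one of the 4 Jurkat libraries was left out. It was also 0.151 with a pseudocount of 5 and 0.0508 with median-of-ratios scaling, so the call in Jurkat rests on the settings (0.0023 to 0.151 over 27 alternatives).

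The monocytic lines already held CCL3 without LPS, and neither difference passed the test. U937 had 83.6 and 33.6 TPM with LPS and 4.70 and 4.91 TPM without it, a ratio of 12.2 in mean TPM. The groups did not overlap, and the log2 difference of 3.22 ± 0.52 had an adjusted p of 0.0797 in limma. With a pseudocount of 5 it passed, at 0.0238, and without the first LPS library it was 2.58 with an adjusted p of 0.251. Over 27 alternatives the adjusted p ran between 0.000957 and 0.668. THP-1 had 9.53 and 10.6 TPM with LPS and 4.14 and 0.648 TPM without it, a log2 difference of 1.93 ± 0.52 with an adjusted p of 0.400 in limma.

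The balance of the pair differed between lines. CCL3 was 7.41 and 5.13 times the TPM of CCL4 in the 2 stimulated BJAB libraries and 1.57 and 1.33 times in the LPS-treated U937 libraries. In LPS-treated THP-1 the same ratio was 0.593 and 0.617, and in stimulated Jurkat 0.279 and 0.745, so that CCL4 was the higher of the pair there. Reads were counted where they aligned uniquely, and the near-identical copies CCL3L1, CCL3L3, CCL4L1 and CCL4L2 were listed at 0 in all 16 libraries. Reads that fit both a gene and its copy are not in these values, so the levels of CCL3 and CCL4 are uncertain.

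**Figure D1:**
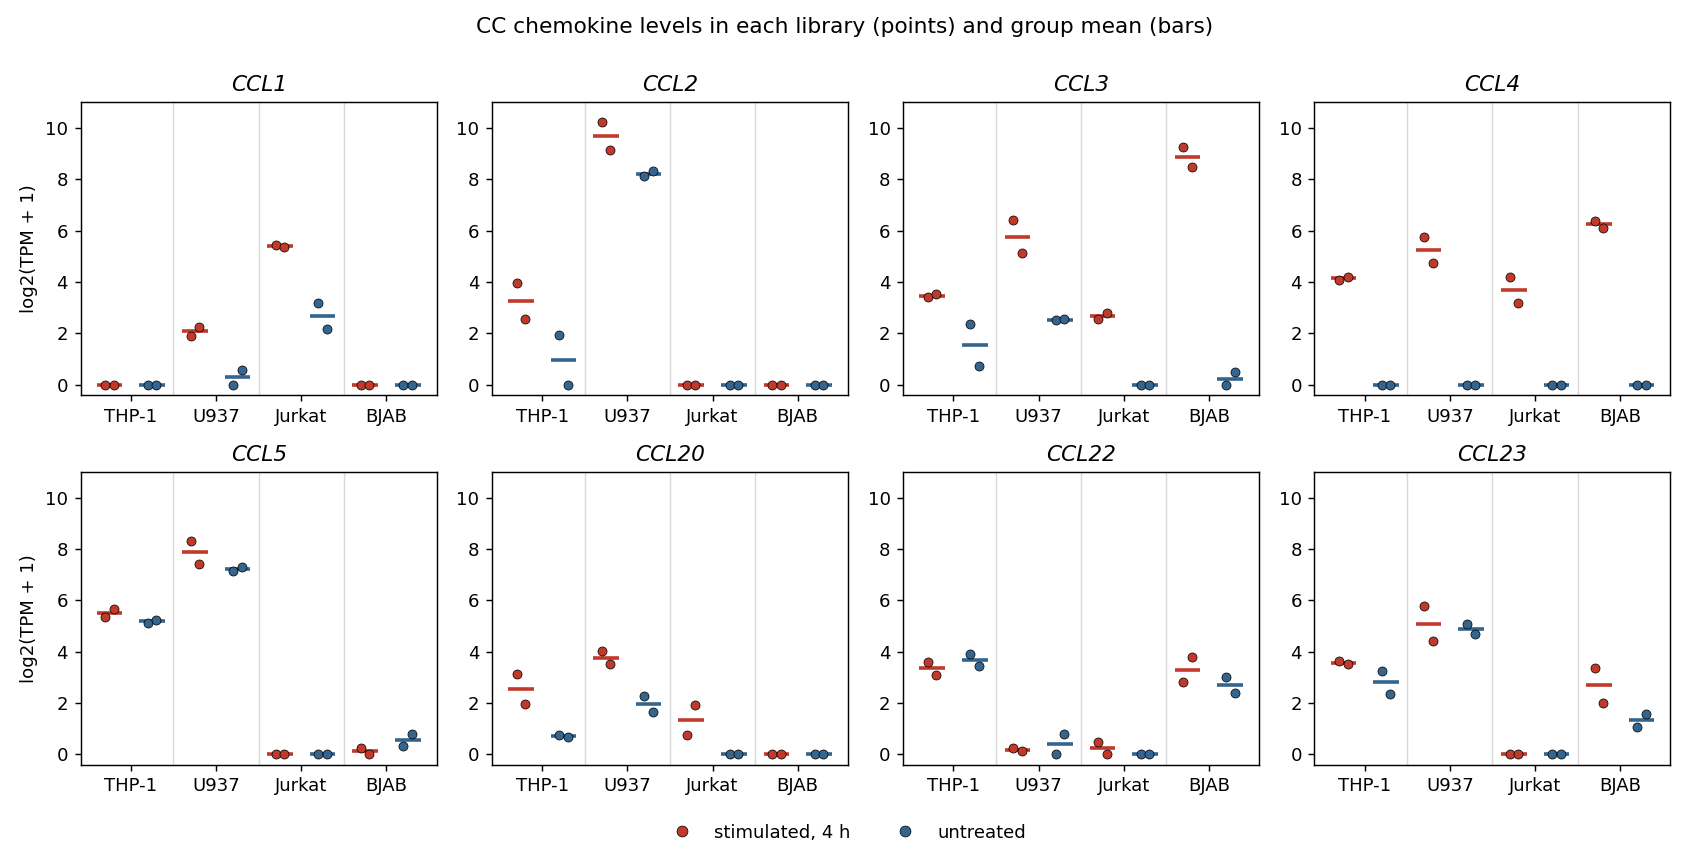
Level of each of the 8 CC chemokine genes in log2(TPM + 1) (vertical axis) by line (horizontal axis). Each point is 1 library, red for stimulated and blue for untreated, and each bar is the mean of the 2 libraries; CCL4 is at 0 in every untreated library, and CCL3 reaches 615 and 350 TPM in stimulated BJAB.

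CCL1, the ligand of CCR8, was mainly a Jurkat transcript and rose there. Its level was 42.8 and 40.3 TPM after anti-CD3 and PMA, against 7.97 and 3.51 TPM in untreated Jurkat. The stimulated libraries lay close together and well above both untreated ones. The mean TPM was 7.25-fold higher (165 reads against 23, ratio per unit of depth 6.95, exact 95% counting interval 4.48 to 11.3). The log2 difference was 2.74 ± 0.29 (SE pooled over 8 groups, 4 of them at 0) with an adjusted p of 0.000141 in limma. It was called in 26 of 27 alternatives, the exception being the fit on the Jurkat libraries alone, with an adjusted p of 0.0969. Many of these alternatives changed only the spread and could not change the difference.

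Outside Jurkat, CCL1 was seen in U937 only. It stood at 2.73 and 3.80 TPM in LPS-treated U937, against 0 and 0.506 TPM in untreated U937, or 14 reads against 1, a ratio of 10.1 with a counting interval of 1.53 to 425. The adjusted p of 0.0847 in limma missed the threshold, while median-of-ratios scaling gave 0.0174 and quantile normalization 0.0238 (0.00774 to 0.67 over 27 alternatives). All 4 THP-1 and all 4 BJAB libraries listed CCL1 at 0.

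The receptor of CCL1 moved the other way in the same cells. CCR8 was at 2.42 and 2.82 TPM in stimulated Jurkat, against 9.55 and 13.8 TPM in untreated Jurkat, and the log2 difference of -1.79 ± 0.20 had an adjusted p of 0.000158 in limma. It was at 0 or below 0.5 TPM in the other lines, and those groups add little to the pooled spread behind this p-value. CCR4, the receptor of CCL22, rose in Jurkat, at 26.4 and 21.9 TPM after stimulation and 7.22 and 5.03 TPM without it (log2 difference 1.83, adjusted p 0.0288 in limma).

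CCL2, the monocyte attractant, had the highest level of any of the 8 genes and was confined to the monocytic lines among the 16 libraries. U937 held 1182 and 565 TPM with LPS and 275 and 314 TPM without it. Both LPS libraries were above both untreated ones, and they differed from each other more in TPM than the lower one did from either untreated library. The log2 difference of 1.47 ± 0.58 had an adjusted p of 0.329 in limma, and it was 0.94 with an adjusted p of 0.983 without the first LPS library. It passed, at 0.0443, when the second LPS library was left out instead, and in none of the other 26 alternatives.

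THP-1 had far less CCL2, at 14.4 and 4.84 TPM with LPS and 2.81 and 0 TPM without it. These levels rest on 47 reads against 7, and the log2 difference of 2.28 ± 0.58 had an adjusted p of 0.325 in limma. Jurkat and BJAB listed CCL2 at 0 in all 8 libraries.

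CCL5, a chemokine for T cells and monocytes, was present in both monocytic lines without LPS and did not pass the test with it. U937 had 319 and 170 TPM with LPS and 139 and 154 TPM without it, a log2 difference of 0.67 ± 0.30 with an adjusted p of 0.329 in limma. Without the first LPS library that difference was 0.22 with an adjusted p of 1, and without the second it was 1.12 with an adjusted p of 0.00862. THP-1 had 39.9 and 49.7 TPM with LPS and 33.8 and 36.6 TPM without it, a log2 difference of 0.33 ± 0.30 with an adjusted p of 1 in limma. Jurkat listed CCL5 at 0 throughout. BJAB held 0.195 and 0 TPM after stimulation and 0.261 and 0.719 TPM without it, or 1 read against 4.

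CCL20, the ligand of CCR6, was low everywhere and did not pass the test in any line. U937 had 15.4 and 10.4 TPM with LPS and 3.81 and 2.14 TPM without it, a log2 difference of 1.81 ± 0.42 with an adjusted p of 0.261, which was 0.0122 (log2 difference 2.08) without the second LPS library. THP-1 had 7.77 and 2.87 TPM with LPS and 0.712 and 0.612 TPM without it, a log2 difference of 1.81 with an adjusted p of 0.235. In both monocytic lines the LPS libraries lay above the untreated ones without overlap. Jurkat had 0.711 and 2.85 TPM after stimulation, against 0 TPM in both untreated libraries. These were 10 reads against 0, with a mean TPM 3.23 times the floor of 3 reads. The adjusted p of 0.112 fell to 0.00400 with a pseudocount of 0.1 and 0.0274 with voom on the recovered reads (up to 0.754 over 27 alternatives). BJAB listed CCL20 at 0 throughout.

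CCL23, a ligand of CCR1, was highest in U937, where the groups overlapped. It stood at 54.0 and 20.3 TPM in LPS-treated U937 and 32.4 and 25.0 TPM in untreated U937, a log2 difference of 0.22 ± 0.51 with an adjusted p of 0.884 that turned to -0.47 without the first LPS library. THP-1 had 11.3 and 10.6 TPM with LPS and 8.62 and 4.12 TPM without it, with an adjusted p of 1. BJAB had 9.41 and 3.01 TPM after stimulation and 1.09 and 2.01 TPM without it. The 30 reads against 6 in BJAB gave a log2 difference of 1.37 with an adjusted p of 0.133, which was 0.0153 without the second stimulated library (up to 0.788 over 27 alternatives). Jurkat listed CCL23 at 0 throughout.

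CCL22, the ligand of CCR4, was found mainly in THP-1 and BJAB and did not pass the test in any stimulation. THP-1 had 11.2 and 7.65 TPM with LPS and 13.9 and 9.90 TPM without it, and BJAB had 5.97 and 12.7 TPM after stimulation and 7.15 and 4.31 TPM without it. The groups overlapped in both lines, with an adjusted p of 1 in THP-1 and 0.390 in BJAB in limma. U937 held 0.186 and 0.0966 TPM with LPS and 0 and 0.721 TPM without it. Jurkat held 0.410 and 0 TPM after stimulation and 0 TPM in both untreated libraries. With stimulated library 1 of U937 and of BJAB left out, the log2 differences not given so far were 1.97 for CCL1, 1.55 for CCL20 and -0.26 for CCL22 in U937. In BJAB they were -0.56 for CCL5, 1.06 for CCL22 and 0.68 for CCL23, and none of these 6 passed (lowest adjusted p 0.148).

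**Figure D2:**
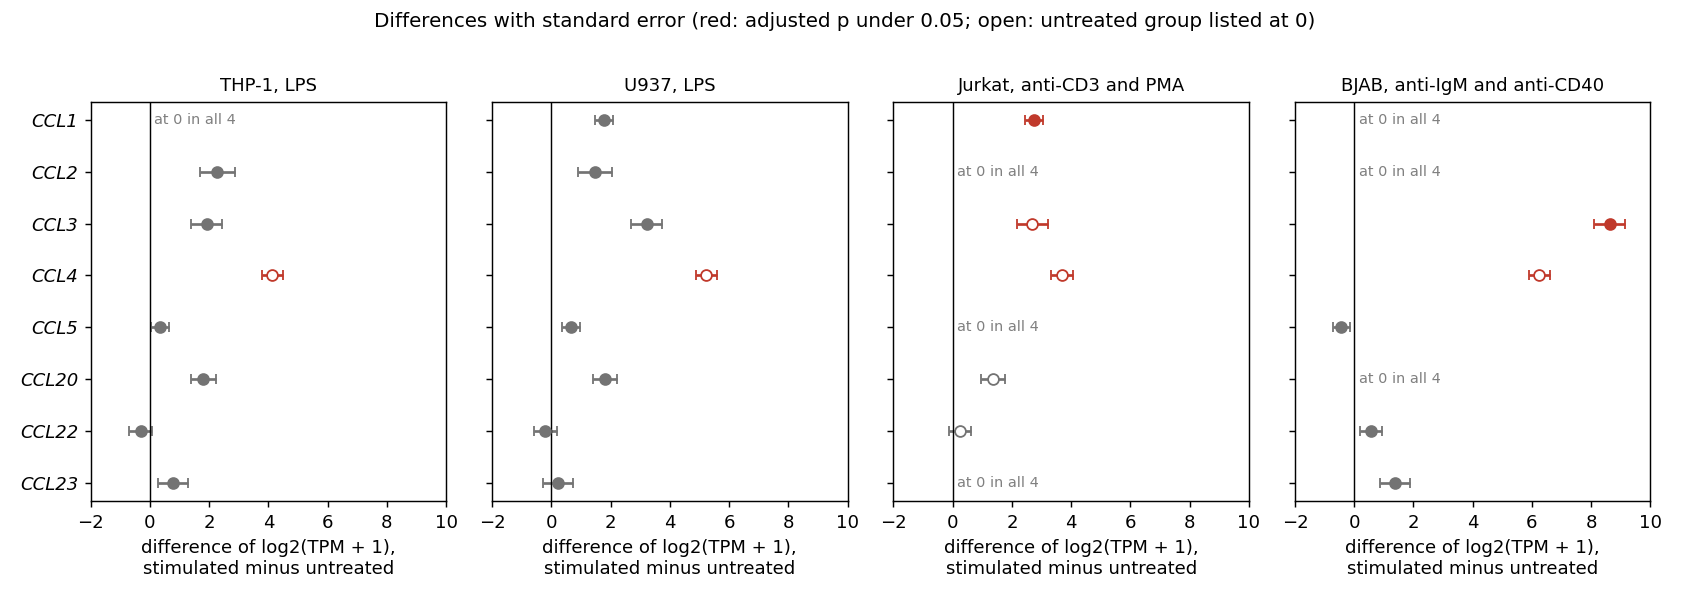
Difference of mean log2(TPM + 1), stimulated minus untreated (horizontal axis), for each gene (rows) in each line (panels), with the standard error as bars. Red marks an adjusted p under 0.05 and an open point an untreated group listed at 0; CCL4 is red in all 4 lines, CCL3 in Jurkat and BJAB, and CCL1 in Jurkat.

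By line, 1 of the 8 genes passed the test upward with LPS in THP-1, where 0.118% of all tested genes did. In U937 it was 1 of 8 against 0.0208% of tested genes, in Jurkat 3 of 8 against 3.02%, and in BJAB 2 of 8 against 1.63%. The 8 genes, like the gene lists below, were chosen with earlier results of these data known. The shares and medians over all genes are therefore given for scale, and enrichment was not tested. Without the second LPS library of U937, which leaves the one that stood apart, 6 of the 8 and 5001 genes in all passed in U937, in either direction. Of the 8 genes, 0 passed downward in these comparisons, where 0.0486% of tested genes did in THP-1, 0.00695% in U937, 1.85% in Jurkat and 4.76% in BJAB. At an unadjusted p under 0.05, 522 genes differed in THP-1 and 2176 in U937, either way. Both stimulated libraries lay above both untreated ones for 6 of the 8 genes in THP-1 (12.2% of all tested genes), 6 in U937 (11.2%), 4 in Jurkat (21.0%) and 3 in BJAB (14.2%). The median log2 difference of the 8 genes was 1.29 in THP-1 (all tested genes -0.06), 1.63 in U937 (-0.25), 0.80 in Jurkat (-0.03) and 0.29 in BJAB (-0.14). With genes at 0 in the untreated pair set to their log2 ratio over the floor of 3 reads, the Jurkat median was 1.03 and the other 3 did not move. With stimulated library 1 of U937 and of BJAB left out, the median was 1.25 in U937 (all tested genes 0) and 0.34 in BJAB (-0.04). The remaining stimulated library lay above both untreated ones for 6 of the 8 genes in U937 (29.2% of tested genes) and 4 in BJAB (27.1%).

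The summed level of the 8 genes shows how differently the lines were composed, within the limits given above for comparing genes. It was 1710 and 829 TPM in LPS-treated U937 and 454 and 502 TPM in untreated U937, with CCL2 making up 69.1 and 68.1% with LPS and 60.5 and 62.6% without it. It was 713 and 434 TPM in stimulated BJAB and 8.50 and 7.43 TPM in untreated BJAB. In BJAB the leading gene was CCL3 after stimulation, at 86.2 and 80.6%, and CCL22 without it, at 84.1 and 58.0%. THP-1 had 110.2 and 103 TPM with LPS and 64.0 and 51.9 TPM without it, led by CCL5 at 36.2 and 48.0% with LPS and 52.9 and 70.5% without it. Jurkat had 66.4 and 57.3 TPM after stimulation, of which CCL1 made up 64.6 and 70.4%, and 7.97 and 3.51 TPM without it, all of it CCL1.

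**Figure D3:**
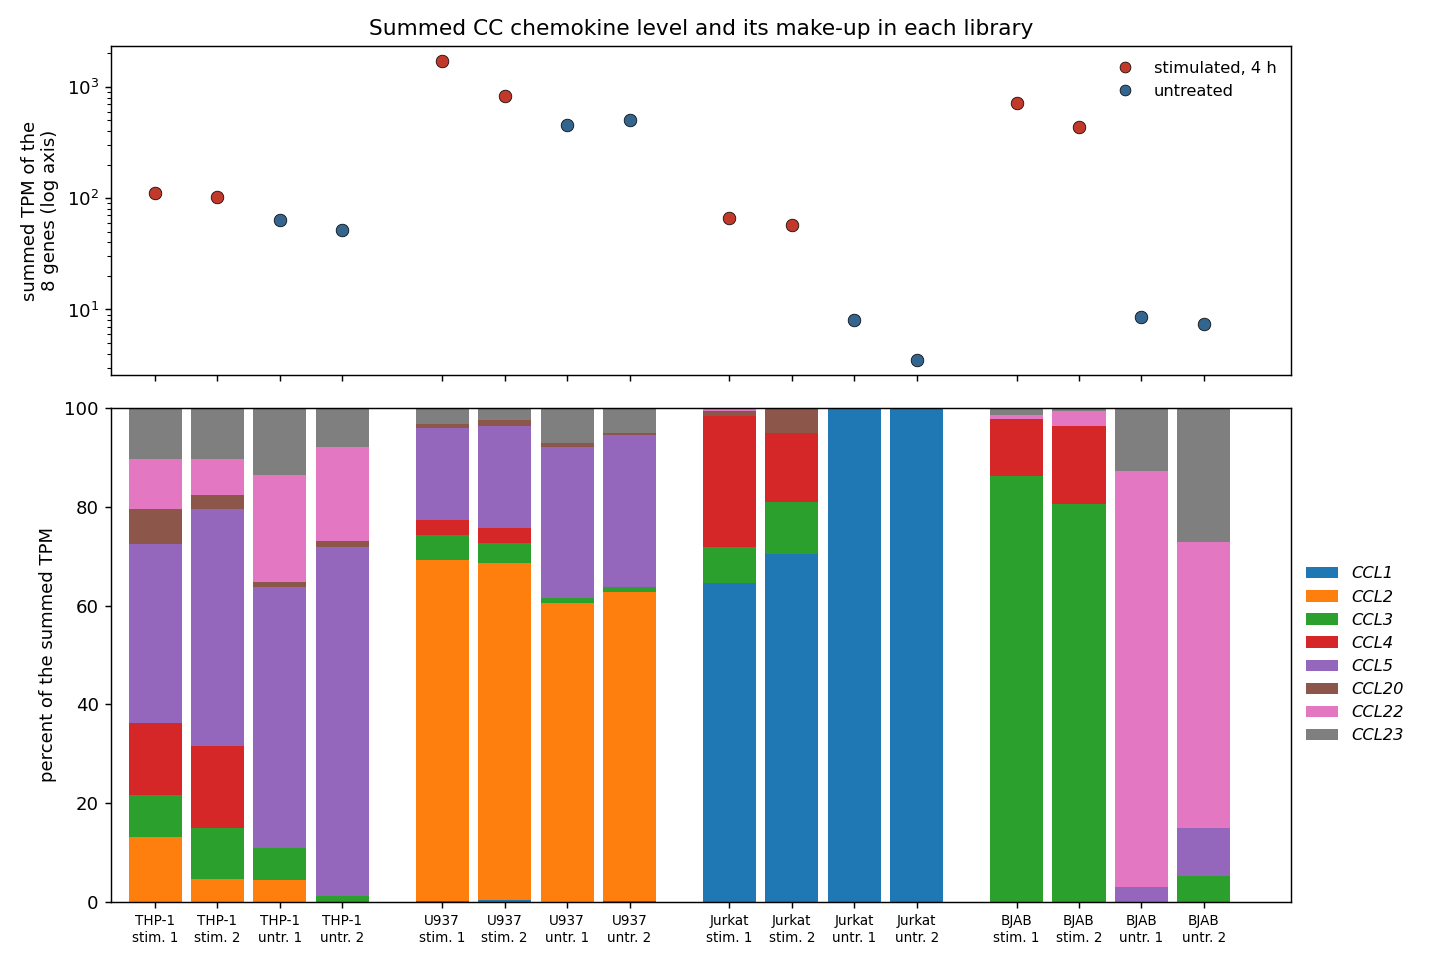
Summed TPM of the 8 genes on a log axis (top) and the percent of that sum held by each gene (bottom) in each of the 16 libraries, the stimulated ones left of the untreated ones in each line. CCL2 leads in U937, CCL5 in THP-1, CCL1 in Jurkat, and in BJAB CCL3 leads after stimulation and CCL22 without it.

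The orders of the group levels show which neighbours are apart. For CCL3 the stimulated groups came first, BJAB ahead of U937, THP-1 and Jurkat, and stimulated Jurkat overlapped untreated U937. For CCL4 the order was the same, with THP-1 and Jurkat overlapping. CCL2 and CCL5 ran from LPS-treated U937 through untreated U937 and LPS-treated THP-1 to untreated THP-1, with no overlap between these neighbours. CCL20 was highest in LPS-treated U937, and LPS-treated THP-1, untreated U937 and stimulated Jurkat each overlapped the next group in the order. CCL22 overlapped along untreated THP-1, LPS-treated THP-1, stimulated BJAB and untreated BJAB, and these 4 groups were separate from the others. CCL23 overlapped between the U937 groups and between untreated THP-1 and stimulated BJAB, and CCL1 between untreated Jurkat and LPS-treated U937.

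Whether LPS acted differently on the chemokines of the 2 monocytic lines was tested as the difference of the log2 differences, THP-1 minus U937, and 0 of the 8 genes passed, where 0.0486% of all tested genes did. In limma 7 genes passed and 891 had an unadjusted p under 0.05, while voom on the recovered reads called 0 genes. For the genes whose groups all held reads, the difference was -1.30 for CCL3 (95% interval -2.92 to 0.33), 0.81 for CCL2 (-1.003 to 2.62), -0.34 for CCL5 (-1.27 to 0.59), -0.01 for CCL20 (-1.30 to 1.29), -0.11 for CCL22 (-1.29 to 1.07) and 0.55 for CCL23 (-1.02 to 2.13). These intervals leave room for differences of more than 2-fold either way or in 1 direction. With a pseudocount of 5 the CCL2 difference was -0.317, and with one of 0.1 that of CCL20 was 0.559. For CCL1 and CCL4, with groups at 0, the fitted differences of -1.79 and -1.10 also depend on the pseudocount. Both passed, at adjusted p of 0.0389 and 0.0333, when the second LPS library of U937 was left out. The lines also differed in LPS dose and in dCas9-KRAB, which cannot be told apart from the line.

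Without stimulation, 4 of the 8 genes differed between THP-1 and U937, 1 higher and 3 lower in THP-1, where 14.8% of tested genes were higher and 11.1% lower. CCL2 was lower by 7.24 on the log2 scale, at 2.81 and 0 TPM in THP-1 against 275 and 314 TPM in U937 (adjusted p 2.44e-06). CCL5 was lower by 2.02, at 33.8 and 36.6 TPM in THP-1 against 139 and 154 TPM in U937 (adjusted p 0.000354). CCL23 was lower by 2.07 (adjusted p 0.0102), a call lost without the second untreated THP-1 library (0.106), without the first untreated U937 library (0.0745) and on these lines alone (0.0519). CCL22 was the one higher in THP-1, by 3.28 with an adjusted p of 5.24e-05. CCL20, at an adjusted p of 0.0511, lay just short of the threshold and passed in 10 of 27 alternatives.

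The untreated lymphoid lines shared no chemokine at a level above 1 TPM. Between Jurkat and BJAB, CCL1 was higher in Jurkat, at 7.97 and 3.51 TPM against 0 TPM in both BJAB libraries (adjusted p 1.97e-05 in limma). CCL22 was lower in Jurkat, at 0 TPM in both libraries against 7.15 and 4.31 TPM in BJAB (adjusted p 0.000144). These were 2 of the 8 genes, 1 in each direction, where 20.4% of tested genes were higher and 11.3% lower in Jurkat. CCL5 and CCL23 also passed, both lower in Jurkat, with stimulated library 1 of U937 and of BJAB left out.

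On the receptor side, 14 CC receptor genes were in the files and 10 were tested. CCR2, the receptor of CCL2, was at 145 and 106 TPM in LPS-treated and 149 and 135 TPM in untreated THP-1, but at 0.151 and 1.18 TPM in LPS-treated and 4.03 and 1.34 TPM in untreated U937. THP-1 thus held the receptor and little of the ligand, and U937 the ligand and little of the receptor. The untreated difference in CCR2, THP-1 minus U937, was 5.38 on the log2 scale with an adjusted p of 8.9e-07 in limma. CCR1, shared by CCL3, CCL5 and CCL23, was at 70.3 and 62.7 TPM in LPS-treated and 62.0 and 59.5 TPM in untreated THP-1. In U937 it was at 3.03 and 11.9 TPM with LPS and 13.0 and 9.21 TPM without it (untreated difference 2.37, adjusted p 0.00139). In untreated cells, 6 of the 10 tested receptors were higher in Jurkat than in BJAB (20.4% of all tested genes), among them CCR8 (log2 difference 3.64), CCR4 (2.82) and CCRL2 (1.99).

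With stimulation, 2 of the 10 receptors rose in Jurkat (3.02% of all tested genes) and 1 fell (1.85%), and 3 rose in BJAB (1.63%). None of them passed in THP-1 or U937, where 0.118% and 0.0208% of all tested genes rose. CCR7, which guides cells to lymph nodes and binds CCL19 and CCL21 and none of the 8 ligands, was at 96.7 and 145 TPM in stimulated BJAB and 1.01 and 0.233 TPM in untreated BJAB (log2 difference 6.25, adjusted p 1.64e-06). In Jurkat it was at 23.3 and 28.4 TPM after stimulation and 3.51 and 2.83 TPM without it (2.69, adjusted p 0.000282). CCRL2, a receptor-like protein that does not signal as the CCR proteins do, rose in BJAB to 5.22 and 7.65 TPM, against 0 and 1.35 TPM without stimulation (adjusted p 0.0140). In Jurkat CCRL2 was at 13.0 and 15.9 TPM after stimulation and 4.77 and 5.40 TPM without it, which did not pass. The third to rise in BJAB was CCR6, the receptor of CCL20, at 3.54 and 1.46 TPM against 0 TPM in both untreated libraries (adjusted p 0.00549). Without the first stimulated BJAB library these 3 still passed, with adjusted p of 8.12e-06 for CCR7, 0.0250 for CCRL2 and 0.0259 for CCR6.

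**Figure D4:**
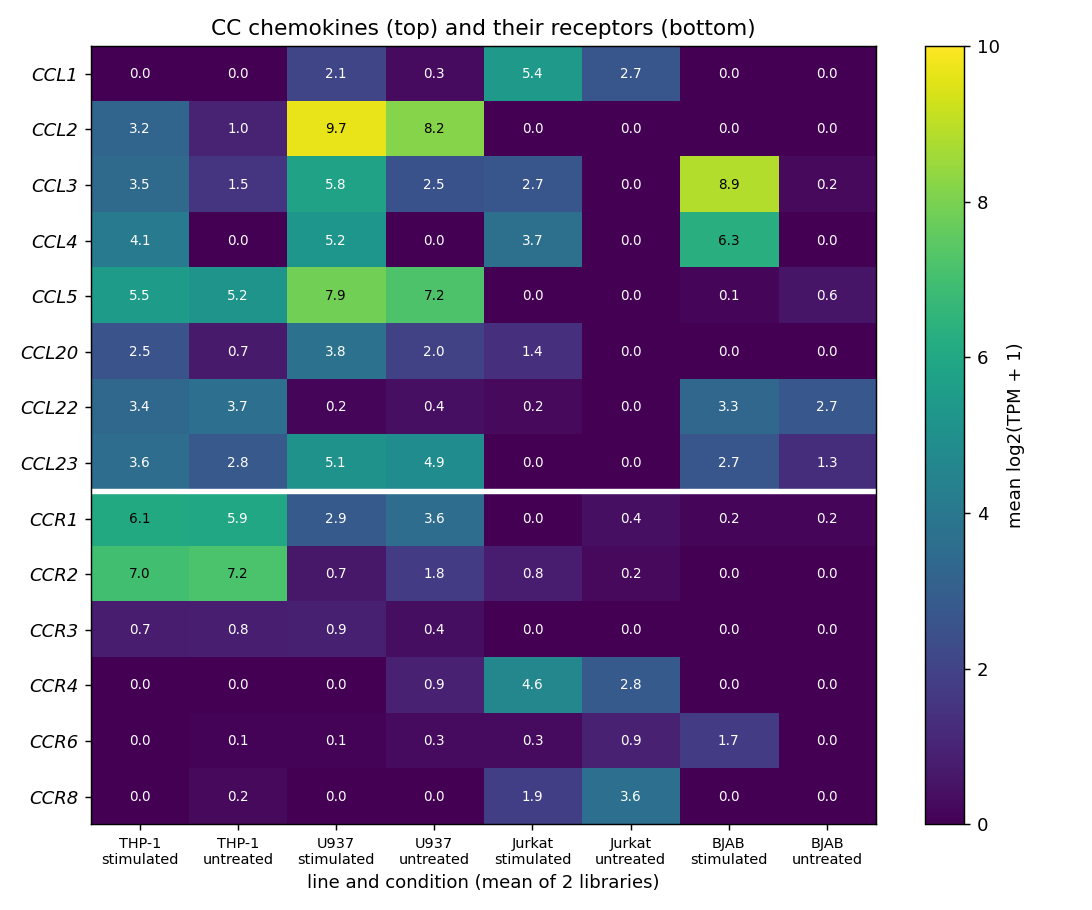
Mean log2(TPM + 1) of the 2 libraries of each group (columns) for the 8 ligand genes (top rows) and 6 of their receptors (bottom rows); the colour scale and the printed values are the same quantity. CCL2 is bright in U937 and CCR2 in THP-1, and in stimulated Jurkat CCR8 is lower and CCL1 higher than in untreated Jurkat.

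The other chemokines and the NF-kB genes give the setting. Of 20 further CC chemokine genes in the files, 10 were above 0 in any library and 5 were tested, and 0 of them passed in a stimulation. Of all tested genes, 0.0208% (U937) to 3.02% (Jurkat) rose and 0.00695% (U937) to 4.76% (BJAB) fell. Among the CXC chemokines, 8 were tested. CXCL10, an interferon-inducible attractant, rose with LPS in THP-1, to 30.3 and 24.3 TPM against 0 TPM (adjusted p 4.5e-05), and in U937, to 46.1 and 44.3 TPM against 0 and 1.48 TPM (adjusted p 5.95e-05, and 0.00226 without the first LPS library). CXCL3 and CXCL8, both neutrophil attractants, rose in Jurkat, CXCL3 to 54.8 and 63.1 TPM against 4.10 and 3.01 TPM and CXCL8 to 10.0 TPM in both libraries against 0 TPM. None of the CXC genes passed in BJAB, where 1.63% of all tested genes rose and 4.76% fell.

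Of 13 NF-kB subunit and regulator genes, 6 rose in Jurkat (3.02% of all tested genes), and in BJAB 3 rose (1.63%) and 1 fell (4.76%). None passed in THP-1 or U937, where few of all tested genes did (0.118% rose in THP-1 and 0.0208% in U937). NFKBIA, the inhibitor that NF-kB itself induces, was at 315 and 367 TPM in stimulated and 45.3 and 50.5 TPM in untreated Jurkat (adjusted p 4.56e-05). In BJAB it was at 84.5 and 149.8 TPM after stimulation and 29.5 and 32.3 TPM without it (adjusted p 0.00170). NFKBIA was at 213 and 187 TPM in LPS-treated and 85.5 and 77.3 TPM in untreated THP-1, and at 175 and 174 TPM in LPS-treated and 57.3 and 65.6 TPM in untreated U937, without passing in either line, though in U937 the adjusted p was 0.0107 without the first LPS library. The largest log2 difference of the list in Jurkat was 4.57 for RELB, at 41.5 and 44.1 TPM after stimulation and 1.10 and 0.611 TPM without it, followed among the 4 largest by NFKBIA, NFKB2 (2.69) and NFKB1 (2.08). NFKB1 (1.93) and NFKBIE (1.32) rose in BJAB with NFKBIA. REL, the one that fell in BJAB, was at 2.75 and 4.03 TPM after stimulation and 7.99 and 11.2 TPM without it. With the first stimulated BJAB library left out, the adjusted p was 3.3e-05 for NFKBIA, 0.00534 for NFKB1, 0.0296 for REL and 0.0649 for NFKBIE, which no longer passed. TNFAIP3 (0.00303, higher) and IKBKB (0.0494, lower) passed in that fit instead.

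Likeness of pattern was measured as Pearson's r of log2(TPM + 1) over the 16 libraries, which share 4 lines, against 11373 candidate genes. CCL5 was most like MNDA (r = 0.994), a nuclear protein of myeloid cells, VENTX (0.993) and RNASE3 (0.993), and CCL2 most like TNFSF13B (0.982), GPR35 (0.970) and MARCO (0.963). CCL1 was near to CHST2 (0.965) and FMNL1 (0.946), and CCL22 to ZNF93 (0.973), H2AFJ (0.971) and ST14 (0.969). CCL23 was nearest to CD163L1 (0.958), DNAJC3 (0.953) and UGGT2 (0.953), and CCL20 to the CXC chemokine CXCL2 (0.900), CD44 (0.854) and DUSP4 (0.847). CCL3 and CCL4 were in each other's first 3 genes, at r = 0.877. The other genes near CCL3 were TMEM70 (0.908) and VEGFA (0.872), and those near CCL4 were NSRP1 (0.800) and CSNK2A2 (0.743). With 4 lines in the 16 libraries, a high r can come from the difference between lines alone.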

How the data were processed

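RNA was sequenced from SmartSeq2 libraries, primed with oligo-dT, of 4 lines in 8 groups of 2. The 16 deposited files give TPM per gene from unique alignments, per the labels; TopHat2 and hg19 are named in the submitters' processing notes, but a counter or annotation is not given in the sources used here. Close copies such as CCL3L1 can therefore cost CCL3 reads. Genes were taken by symbol.

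TPM values are whole multiples of what 1 read is worth. At a tolerance of 0.001, whole reads were recovered for 17860 of 19092 genes above 0 (93.5%); the other 1232 were above 0 in 1 library only. PCR reads are not independent molecules, so intervals and floors cover counting error only. In limma 3.58.1 (R 4.3.3), log2(TPM + 1) of the 16 libraries was modelled with 1 coefficient per group, with a trend, for 14398 genes with TPM of at least 1 in 2 libraries (8 residual degrees of freedom, prior 3.18), two-sided, Benjamini-Hochberg threshold 0.05, in 7 contrasts. This scale understates changes of low genes, and a difference against a group at 0 depends on the pseudocount. Groups near 0 add little spread, so genes silent in most groups have a small pooled spread. For single genes, fits on the compared lines alone are given for the 8 chemokines and not for the receptor, CXC and NF-kB genes. Ratios against such a group use a floor of 3 reads over it and leave out the counting error of the stimulated reads. The recovery and the test were tested on simulated data.

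The named genes were all 8 chemokines, then the genes of the receptor, CXC and NF-kB lists past the threshold with a mean of at least 5 TPM in the higher group (at most 4 per list and contrast), receptors whose highest group mean was at least 5 TPM, and the 3 genes most alike to each chemokine; some genes are not reported here. CCR6, NFKBIA in the monocytic lines and the near copies were named after their values were seen. The members and lists were chosen with earlier results of these data known. Alternatives were pseudocounts of 0.1 and 5, other filters and scalings, no trend, voom, a replicate block, compared lines alone, and libraries left out.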

Additional observations from a re-analysis of the deposited data

How the results depend on the processing

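The counts of chemokines past the threshold kept to within 1.5 times of the reported ones under most of the 27 alternatives per comparison. When only the lines compared were fitted, which leaves fewer libraries to set the spread, the counts were 0 in THP-1, 0 in U937, 1 in Jurkat and 0 in BJAB. Over all tested genes the same fits called 0 in THP-1, 0 in U937, 368 in Jurkat and 12 in BJAB. In U937 the count of chemokines was 2 with a pseudocount of 5, median-of-ratios scaling and quantile normalization (13, 13 and 14 of all tested genes). Between untreated Jurkat and BJAB it was 4 with a pseudocount of 0.1 and without stimulated library 1 of U937 and of BJAB. Leaving out 1 library at a time, the U937 count ran between 1 and 6, with 6 without the second LPS library of U937 and 2 without either untreated THP-1 or either untreated Jurkat library, and the count for the difference in LPS response between 0 and 2. The cause was not tested. Over all genes, the counts past the threshold ran between 0 and 66 in THP-1 (24 as reported), 0 and 5001 in U937 (4), 336 and 1945 in Jurkat (701), 12 and 4138 in BJAB (921), 0 and 2564 for the difference in LPS response (7), 2350 and 6787 between untreated THP-1 and U937 (3730) and 3347 and 7417 between untreated Jurkat and BJAB (4573).

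Single log2 differences changed sign only for genes that had not passed. In U937 CCL22 was 0.0038 with quantile normalization and ran between -0.594 and 0.189 with 1 library left out, and CCL23 was -0.471 without the first LPS library and ran between -0.471 and 0.902 with 1 library left out. For the difference in LPS response, CCL20 was 0.559 with a pseudocount of 0.1, 0.463 with voom, 0.26 without stimulated library 1 of U937 and of BJAB, and -0.597 to 0.585 with 1 library left out. CCL2 was -0.317 with a pseudocount of 5, CCL22 was 0.114 with voom and CCL5 was 0.112 without stimulated library 1 of U937 and of BJAB. With 1 library left out, the differences in LPS response ran between -0.158 and 1.77 for CCL2, -0.787 and 0.112 for CCL5, -0.498 and 0.285 for CCL22 and -0.135 and 1.24 for CCL23. Many alternatives, such as leaving out a library of a group not compared, changed only the spread. The log2 difference and its sign could not change in those, so the number of values that kept direction is partly fixed by design. In all, 1142 of the single-gene values kept direction and side of the threshold, 38 newly passed, 15 no longer passed and 20 changed sign.

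With the replicate number of each line as a block, the counts of chemokines called stayed at 1, 1, 3, 2, 0, 4 and 2, and the counts over all genes were 8 in THP-1, 541 in BJAB, 2 for the difference in LPS response and 2350 between untreated THP-1 and U937. In THP-1 (r = 0.012), U937 (-0.0421) and Jurkat (0.0174), deviations of libraries with the same number were nearly unrelated. In BJAB they were weakly related (0.142). No label says what the numbers mark, so this pairing was not used. Depth limits the low genes: 3 reads over a pair of libraries come to 0.468 to 0.583 TPM for CCL20 in BJAB, and a level of 0 there allows up to that.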
